A study of Mus musculus with 16 samples.

Results

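Whole-brain gene expression was compared between all 8 arrays labelled TNF knockout and all 8 arrays labelled C57BL/6, to find genes that differed by label in the same way in naive brain and in brain after stroke. The arrays were chosen by their labels, and they are 16 of the 16 arrays of the study. Of the genes on the Affymetrix Mouse Gene 1.0 ST array, 19938 had a probe set with a single gene symbol, and all of them entered the comparison. All mice were males of 8 weeks. There were 4 groups of 4 arrays. C57BL/6 naive mice and TNF knockout naive mice had no surgery and no sham operation. C57BL/6 stroke mice and TNF knockout stroke mice had brain tissue taken 24 h after permanent middle cerebral artery occlusion, a model of ischaemic stroke in which 1 artery of the brain is closed for good. The labels number the replicates but do not say that each is a separate animal, so p-values measure the spread between these arrays. They do not name the C57BL/6 substrain, the strain of the stem cells used to make the knockout, or the number of backcrosses.

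Tumour necrosis factor is a cytokine made in brain mainly by microglia and invading macrophages, and it acts on the receptors encoded by Tnfrsf1a and Tnfrsf1b. A knockout line is made by changing 1 gene in embryonic stem cells and crossing the resulting mice to the strain that serves as control. Stretches of chromosome from the stem cell strain can persist after backcrossing, next to the targeted gene and elsewhere. The Tnf gene lies on chromosome 17 inside the major histocompatibility complex, between the related cytokine genes Lta and Ltb.

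The deposited values are on a log2 scale, on which a difference of 1 is a doubling. The medians of the 16 arrays lay between 6.01 and 6.05. General neuron markers had array means between 10.18 and 10.32 and those of neutrophils and monocytes between 3.76 and 4.34. The arrays labelled TNF knockout carry sample names with 1 of 2 prefixes. KL76 marks naive arrays 1, 2 and 3 and stroke array 1, and KL82 marks naive array 4 and stroke arrays 2, 3 and 4, while every C57BL/6 array carries KL42. What the prefixes stand for is not given, and the prefix and the label cannot be told apart between the genotypes. At the gene Gdpd3, described below, both arrays labelled TNF knockout that are numbered 1 stood apart from the other 6. No 2 arrays held identical values.

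Tnf itself read higher in the arrays labelled TNF knockout. In C57BL/6 naive brain its probe set read 5.01, 5.72, 5.08 and 5.41, and in C57BL/6 stroke brain 5.64, 5.28, 5.67 and 5.68. In arrays labelled TNF knockout it read 6.14, 6.46, 6.47 and 6.58 in naive brain and 6.75, 6.6, 6.99 and 6.88 after stroke. Every array labelled TNF knockout was above every C57BL/6 array. The difference was 1.17 ± 0.10 (SE, 8 against 8 arrays) on the log2 scale, or 2.25-fold (limma, adjusted p = 5.04e-07). It was 1.11 in naive arrays alone and 1.24 in stroke arrays alone, and 1.09 for KL76 and 1.26 for KL82 against the same C57BL/6 arrays. The direction goes against the label if the probes report intact Tnf mRNA. The labels do not say which part of the gene was removed or whether the probe set lies in it, so the reading does not check the label. For this reason the groups are named by their labels throughout.

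Over all genes 492 passed an adjusted p of 0.05 in a model with the label and the state (naive or stroke) as additive terms. That is 2.47% of the genes tested, and such genes are referred to as called. Of these, 255 (1.28%) were higher and 237 (1.19%) lower with the TNF knockout label. When each array was first centred on its median the split was 200 higher and 296 lower. Most of the differences were small. The median size among called genes was 0.31 on the log2 scale against a median SE of 0.07 over all genes, and 19 genes were higher and 18 lower by at least 1.5-fold. For 100 genes (0.502%) the 8 arrays of one label did not overlap the 8 of the other, and 89 of these were called (0.446%), 44 higher and 45 lower. The count of 492 depended on single arrays: it fell to between 263 and 314 without C57BL/6 naive array 3 or 4 or stroke array 4, and without naive array 3 or 4 or stroke array 4 labelled TNF knockout.

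Naive and stroke arrays share no sample, so each state gave its own measurement of the difference. In naive arrays alone 51 genes were called (0.256%), 24 higher and 27 lower. In stroke arrays alone 46 were called (0.231%), 20 higher and 26 lower. Called in both were 17 genes, 8 higher and 9 lower, each in the same direction. They make up 33.3% of the naive calls and 37% of the stroke calls, beside 0.0853% of all genes. Of the 51 genes called in naive arrays 48 had the same sign in stroke arrays (94.1%), and of the 46 called in stroke arrays 45 had the same sign in naive arrays (97.8%). Over all 19938 genes the share was 59.3%. With 1 array left out the counts fell to 15 in naive arrays (without array 3 of either label) and 15 in stroke arrays (without C57BL/6 array 4).

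**Figure D1:**
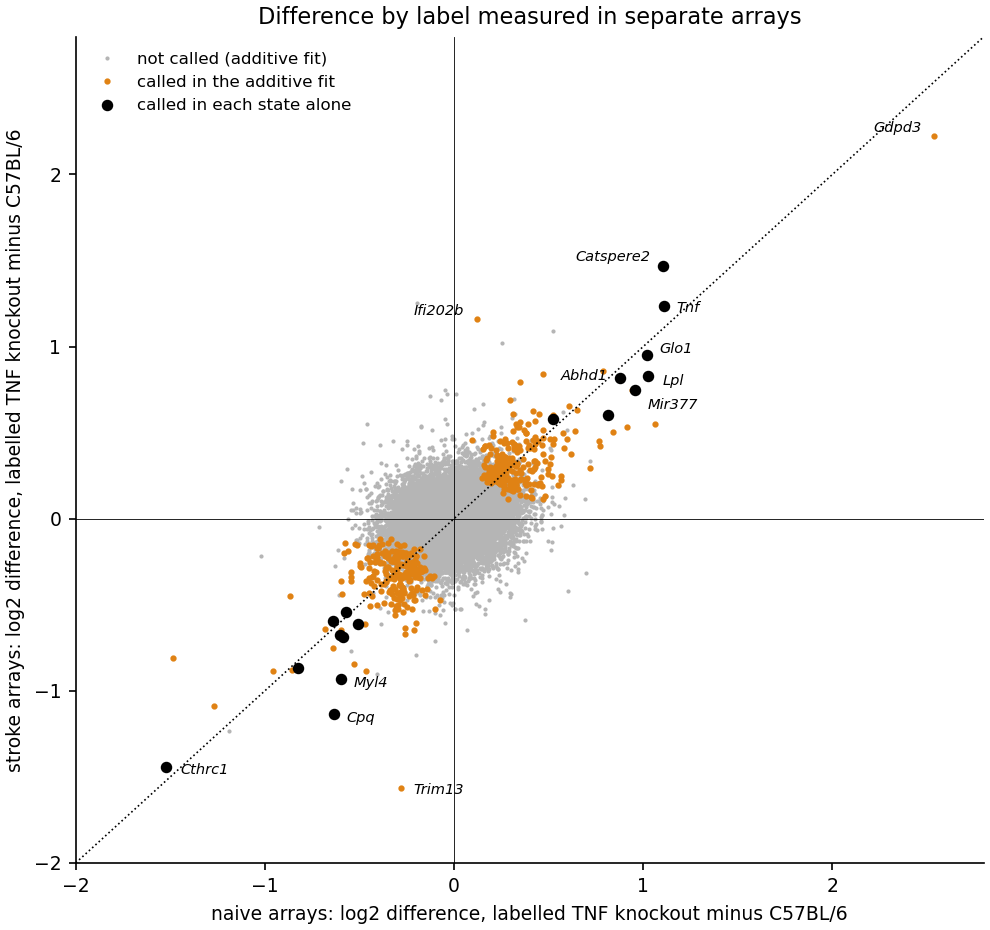
Log2 difference (arrays labelled TNF knockout minus C57BL/6) in the 4 against 4 naive arrays on the x axis and the 4 against 4 stroke arrays on the y axis, 1 point per gene for 19938 genes, with the dotted line marking equal differences. The 17 genes called in each state alone (black) lie in the upper right and lower left, Cpq and Myl4 farther from the line than Glo1 and Cthrc1, and Ifi202b and Trim13 lie far from it.

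The 17 genes were Tnf, Catspere2, Glo1, Lpl, Mir377, Abhd1, Zfp983 and A930017M01Rik, which were higher, and Cthrc1, Cpq, C030034I22Rik, Myl4, Baalc, Bpnt1, Nnt, Fzd6 and Atraid, which were lower. Cthrc1, a secreted collagen triple helix repeat protein, had the smallest p. It read 7.51, 7.26, 7.50 and 7.73 in C57BL/6 naive brain, 7.45, 7.44, 7.47 and 7.75 in C57BL/6 stroke brain, 5.92, 6.2, 5.88 and 5.90 in naive arrays labelled TNF knockout and 6.16, 6.00, 6.25 and 5.92 in stroke arrays with that label. The labels did not overlap in either state. Cthrc1 was lower by 1.49 ± 0.08 (SE), a 2.8-fold difference (limma, adjusted p = 1.59e-10), with -1.52 in naive and -1.45 in stroke arrays.

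Glo1 encodes glyoxalase 1, which uses glutathione to clear methylglyoxal, a reactive by-product of glycolysis. It read 8.61, 8.78, 8.86 and 9.08 in C57BL/6 naive brain and 8.99, 8.83, 8.84 and 9.02 after stroke, against 9.78, 9.79, 9.94 and 9.89 and then 9.78, 9.93, 9.92 and 9.85 in arrays labelled TNF knockout. The 8 arrays of that label spanned a narrow range well above the C57BL/6 arrays. The difference was 0.98 ± 0.06, or 1.98-fold (adjusted p = 5.01e-09), and a second Glo1 probe set gave 0.98 ± 0.07.

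Catspere2, whose product belongs to a family of sperm calcium channel subunits, was higher by 1.29 ± 0.08 (adjusted p = 5.01e-09). Its C57BL/6 arrays read 6.66, 7.12, 6.70 and 6.72 in naive brain and 6.46, 6.41, 6.41 and 6.36 after stroke, and all arrays labelled TNF knockout read between 7.75 and 8.14. Lpl, the lipoprotein lipase that releases fatty acids from triglycerides, was higher by 0.93 ± 0.08 (adjusted p = 7.3e-07), with C57BL/6 arrays from 5.63 to 6.12 and the others from 6.62 to 7.11. For both genes the labels did not overlap in either state.

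Nnt, the mitochondrial transhydrogenase that makes NADPH, was lower by 0.62 ± 0.06 on the log2 scale (adjusted p = 2.05e-06), that is -0.64 in naive and -0.60 in stroke arrays. Its C57BL/6 arrays ran from 8.15 to 8.49 and the arrays labelled TNF knockout from 7.63 to 7.92. Nnt is known as a marker of C57BL/6 substrains, since C57BL/6J mice carry a deletion in it. Here the C57BL/6 arrays were the higher ones.

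Further genes of this kind with a known role were Abhd1, a hydrolase-fold protein (0.85 ± 0.08), Bpnt1, a phosphatase of sulphate metabolism (-0.64 ± 0.07), Myl4, a myosin light chain (-0.77 ± 0.09), and Cpq, a plasma carboxypeptidase (-0.89 ± 0.10). Baalc, a membrane-associated protein of brain and blood progenitors, differed by -0.64 ± 0.06. The Wnt receptor gene Fzd6 differed by -0.56 ± 0.07 and Atraid by -0.56 ± 0.06. All of these stayed called whichever 1 of the 16 arrays was omitted. Fzd6 was the only one of the 17 genes whose labels overlapped, at 6.67 to 7.18 in C57BL/6 arrays against 6.07 to 6.75.

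Other genes separated the labels in all 16 arrays without being called in each state alone. Ddo, the D-aspartate oxidase that breaks down D-aspartate, was higher by 0.53 ± 0.07 (limma, adjusted p = 0.000194), with C57BL/6 arrays from 5.71 to 6.11 and the others from 6.22 to 6.6. Itih3, a carrier of the matrix sugar hyaluronan, was higher by 0.50 ± 0.10, and Sdk2, a synaptic adhesion molecule, by 0.46 ± 0.09. Bex2, an X-linked gene of neurons, was lower by 0.46 ± 0.07, at 9.22 to 9.77 in C57BL/6 arrays against 8.85 to 9.02. All 4 stayed called whichever array was omitted. Marchf11, a ubiquitin ligase gene, was higher by 0.61 ± 0.09, but its second probe set gave -0.03 ± 0.08, so the probe sets disagreed.

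**Figure D2:**
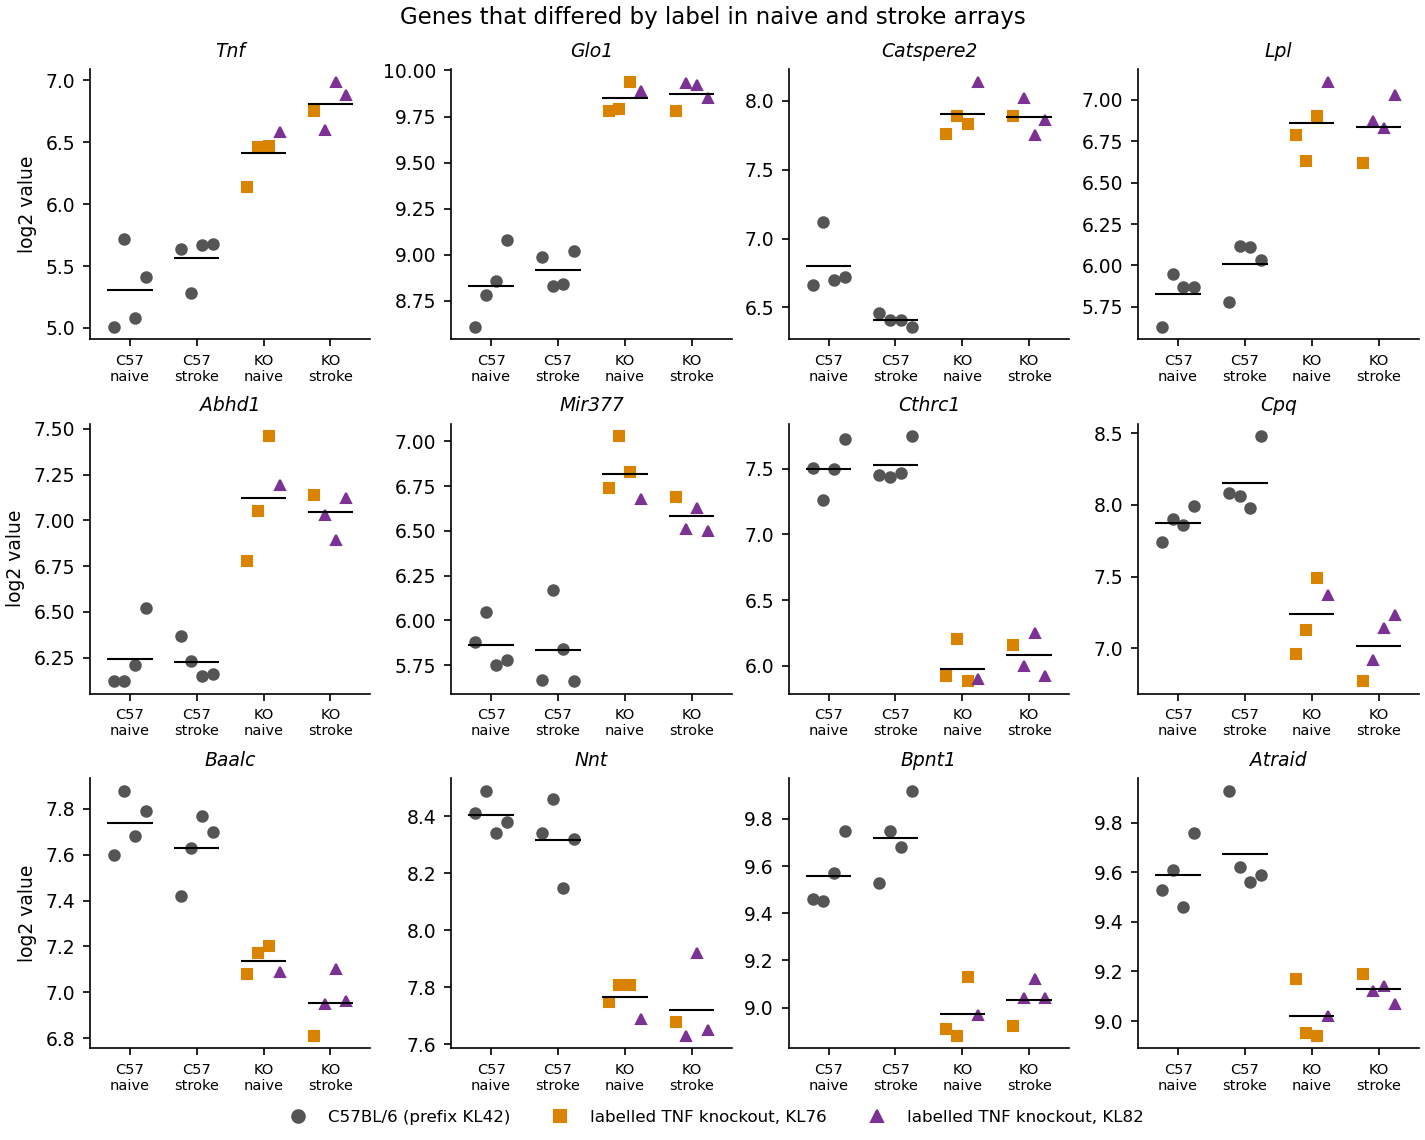
Deposited log2 values of 12 genes in each of the 16 arrays, by label (KO marks arrays labelled TNF knockout) and state, with the prefix of the sample name as the marker shape and the group mean as a line. In each panel the 8 arrays labelled TNF knockout lie wholly above or wholly below the 8 C57BL/6 arrays, in both states.

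The size of each difference was then compared between the states by the genotype by state term. No gene passed (0%, limma), and 1480 genes had an unadjusted p below 0.05, among them 36 of the 492 called genes. This does not show that the differences were equal. The state is partly mixed with the prefix, since 3 of 4 naive arrays labelled TNF knockout carry KL76 and 3 of 4 stroke arrays KL82. With the prefix as a further term, chosen after the data were seen, again 0 genes passed, and 2082 had an unadjusted p below 0.05. The median SE of the term was 0.14, and its 95% interval stayed within the size of the offset for 82 of the 492 genes and within 50% of it for 5. For Cthrc1 the state difference had an interval of -0.24 to 0.40, for Glo1 -0.33 to 0.20, for Nnt -0.20 to 0.29 and for Tnf -0.28 to 0.54. These intervals are narrow beside the offsets of Cthrc1 and Glo1. Cpq was less even, at -0.64 in naive and -1.14 in stroke arrays, with an interval of -0.87 to -0.13.

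Called genes were not spread evenly over the chromosomes. Chromosome 17 had 47 of 940 tested genes called (5%), chromosome 12 had 31 of 654 (4.74%) and chromosome 15 had 32 of 753 (4.25%), beside 2.47% over all genes and 1.54% on chromosome 6, the lowest of the autosomes. Of the 89 called genes with no overlap between labels, 17 lay on chromosome 17 and 12 on chromosome 15, which is 1.81% and 1.59% of their tested genes beside 0.446% overall. On chromosome 12 the calls leaned in one direction, with 26 higher and 5 lower. Of these 26, 18 lay among the 48 tested genes from Dlk1 to Dio3. On chromosome 15, 15 of the 32 called genes lay among the 49 from Ankrd33b to Cthrc1. The shares of these 2 chromosomes thus came in large part from 1 stretch each. Called genes also tended to be neighbours. Of the 492, 71 had a called gene next to them (14.4%), against 4.76% of all tested genes. The 39 pairs of called neighbours moved the same way in 33 cases and in opposite ways in 6.

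A run was counted where at least 4 called genes followed each other with at most 5 uncalled genes between one and the next. There were 9 runs on 6 chromosomes, and they held 64 of the called genes (13%) among 149 genes tested. By this definition a run is dense in called genes, so its share of called genes above the 2.47% over all genes is not a result. Chromosome 17 had 3 runs and chromosome 15 had 2, and chromosomes 1, 7, 8 and 12 had 1 each. With the order of RefSeq genes on the assembly GRCm38.p6 used only to rank genes, the runs are named below by their first and last gene.

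**Figure D3:**
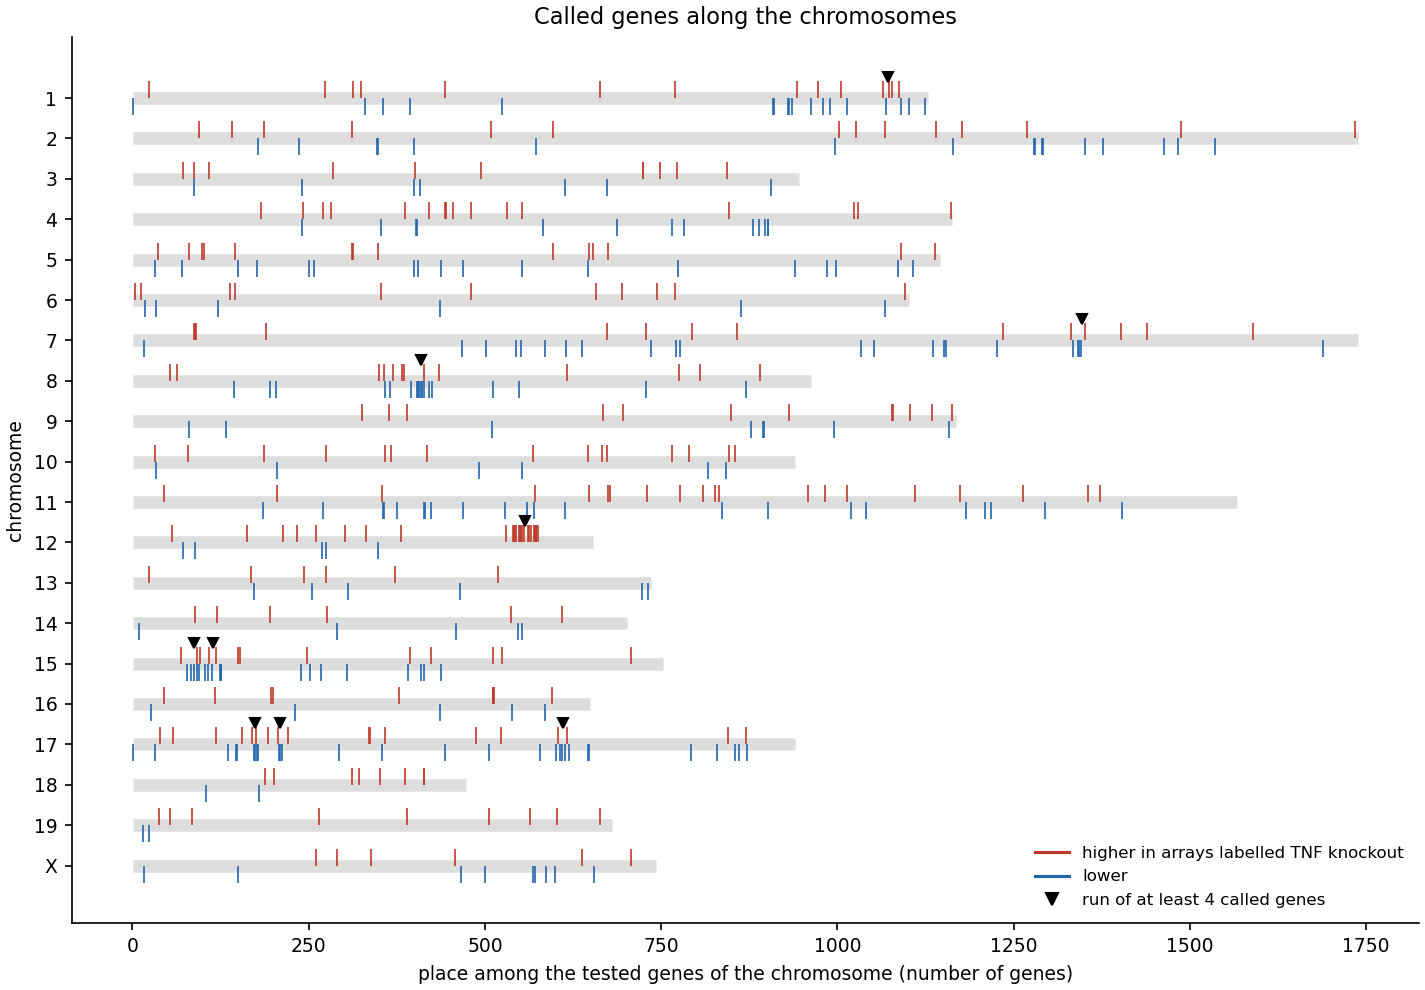
Place of the 492 called genes among the tested genes of each chromosome (x axis, number of genes, y axis, chromosome), drawn upward in red where higher and downward in blue where lower in arrays labelled TNF knockout. Triangles mark the 9 runs, and the dense red block on chromosome 12 is the run from Rian to Mir369.

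The run on chromosome 12 lies in the Dlk1-Dio3 region, an imprinted domain. In such a domain each gene is read from only 1 parental copy. The maternal copy here gives the noncoding RNAs Meg3 and Rian and a large group of microRNAs and small nucleolar RNAs, and the paternal copy gives the protein genes Dlk1, Rtl1 and Dio3. MicroRNAs are short RNAs that pair with messenger RNAs through their seed, bases 2 to 8, and lower their output. From Rian to Mir369, 17 of 36 tested genes were called, all of them higher with the TNF knockout label. A total of 35 of the 36 had a difference above 0. The median over the 36 was 0.37, against -0.01 over all genes.

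The called genes of this run were Rian, the small nucleolar RNA genes DQ267101 and DQ267102 and 14 microRNA genes. All 14 microRNA genes were found in RefSeq (GRCm38.p6), with 27 mature sequences and 27 different seeds, so none of the 14 shared a seed. A probe set reports the microRNA gene or its precursor and does not separate the arms. The sequences of the genes with the largest differences are shown to identify them, with the seed in capitals and both arms given.
mmu-miR-377-3p: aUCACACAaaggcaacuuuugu
mmu-miR-377-5p: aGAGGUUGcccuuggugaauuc
mmu-miR-380-3p: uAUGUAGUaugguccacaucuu
mmu-miR-380-5p: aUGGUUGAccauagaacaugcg
mmu-miR-323-3p: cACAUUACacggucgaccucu
mmu-miR-323-5p: aGGUGGUCcguggcgcguucgc
mmu-miR-369-3p: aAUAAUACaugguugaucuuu
mmu-miR-369-5p: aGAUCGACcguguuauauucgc

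Mir377, the source of the first pair of sequences, read 5.88, 6.05, 5.75 and 5.78 in C57BL/6 naive brain and 5.67, 6.17, 5.84 and 5.66 after stroke. In arrays labelled TNF knockout it read 6.74, 7.03, 6.83 and 6.68 and then 6.69, 6.51, 6.63 and 6.50. It was the only microRNA gene of the run whose labels did not overlap, and the only one called in both states. Its difference was 0.85 ± 0.08 (limma, adjusted p = 2.05e-06). Mir380 followed at 0.63 ± 0.12, Mir323 at 0.57 ± 0.10 and Mir369 at 0.53 ± 0.11. The other 10 called microRNA genes of the run lay between 0.32 (Mir370) and 0.49 (Mir679). The weakest of them, Mir370, Mir409, Mir300 and Mir382, stayed called 4, 4, 6 and 9 times of 16 when each array was omitted in turn.

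Rian, the long host RNA that begins the run, read 8.19, 8.51, 8.07 and 7.42 in C57BL/6 naive brain and 8.24, 8.29, 8.14 and 7.68 after stroke. Both C57BL/6 arrays numbered 4 were the lowest of their group. The same held at Mir323, Mir300, Mir154 and DQ267102, but not at Mir377, Mir329, DQ267101 or Meg3. No fit left out both of these arrays together. In the arrays labelled TNF knockout Rian read between 8.56 and 8.97, so the labels did not overlap, and the difference was 0.64 ± 0.12 (adjusted p = 0.00513). DQ267101 and DQ267102 differed by 0.56 ± 0.08 and 0.44 ± 0.08, also without overlap.

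The called genes did not cover the whole domain, though 45 of its 48 tested genes were above 0, with a median of 0.32. Missing the threshold does not show that a gene was unchanged. From Dlk1 to Dio3, 18 of 48 genes were called (37.5%), all higher, and the gene added outside the run was Meg3, at 0.31 ± 0.07 (adjusted p = 0.0252). Of the paternally read genes, Dlk1 gave 0.17 ± 0.08 (adjusted p = 0.285), Rtl1 0.08 ± 0.10 (adjusted p = 0.717) and Dio3 -0.07 ± 0.10 (adjusted p = 0.754), and none was called. The domain's median was 0.26 in naive and 0.37 in stroke arrays. Elsewhere in the genome 12 of 262 microRNA genes were called (4.58%), 5 of them higher, with a median of -0.01. With 1 array left out at a time, 13 to 20 of the 36 genes of the run were called, and the median stayed between 0.33 and 0.42. The lowest count, 13, was reached without C57BL/6 naive array 3 or stroke array 4, and without naive array 3 or 4 or stroke array 1 or 4 of those labelled TNF knockout. By its spacing the run was less stable: at least 50% of its called genes again lay in 1 run in 8 of these 16 fits, and not after quantile normalization, with gaps of at most 2 genes or at a threshold of 0.01.

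**Figure D4:**
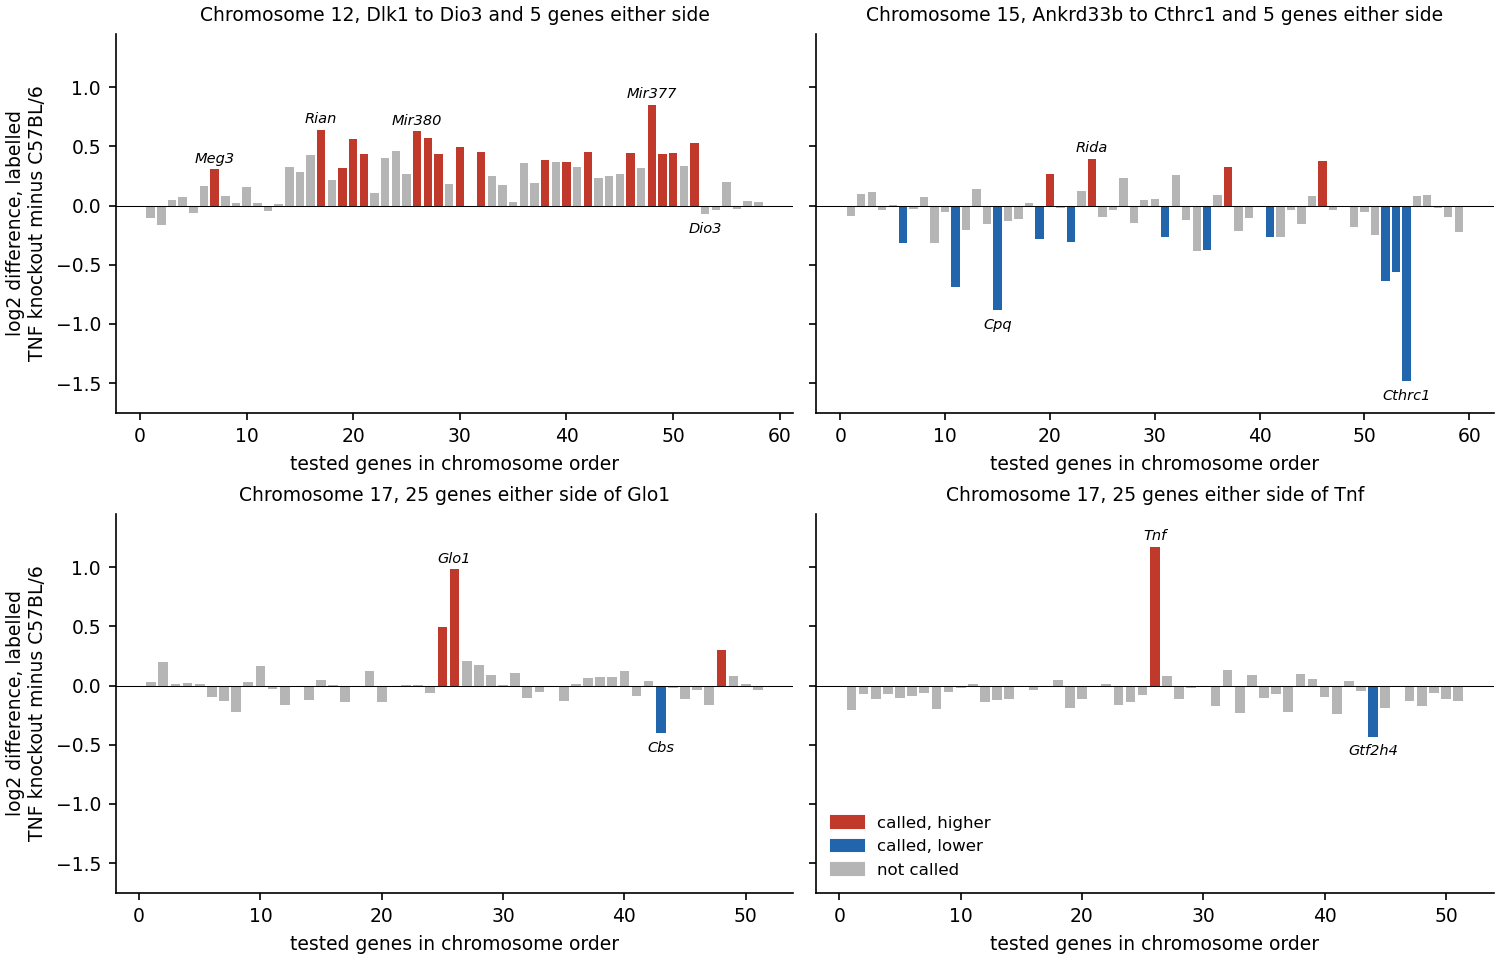
Log2 difference (arrays labelled TNF knockout minus C57BL/6, y axis) of every tested gene in chromosome order (x axis) in 4 regions: Dlk1 to Dio3 on chromosome 12, Ankrd33b to Cthrc1 on chromosome 15, and 25 genes either side of Glo1 and of Tnf on chromosome 17. Bars are mostly above 0 on chromosome 12 and of mixed sign on chromosome 15, and Glo1 and Tnf are the tallest bars of their windows, where Btbd9, Cbs, Rrp1b and Gtf2h4 are also called.

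Chromosome 15 held 2 runs close to each other. The first, from Ankrd33b to Rida, had 7 called genes of 19, and the second, from Cox6c to Cthrc1, had 8 of 24. Over the whole stretch from Ankrd33b to Cthrc1, 15 of 49 genes were called (30.6%), 4 higher and 11 lower, and 7 of the 15 did not overlap between labels. The stretch ends in 3 called neighbours that were all lower, Baalc, Fzd6 and Cthrc1. Within it Atpsckmt, a mitochondrial lysine methyltransferase gene, differed by -0.69 ± 0.10 and Cpq by -0.89 ± 0.10. Signs changed between neighbours, as at the adjacent pair Laptm4b (-0.29 ± 0.05) and Matn2 (0.27 ± 0.07), the gene of the matrix protein matrilin. The second run also held Spag1 (-0.38 ± 0.07), Ankrd46 (0.33 ± 0.06) and the respiratory chain gene Cox6c (-0.27 ± 0.05). Whichever of the 16 arrays was omitted, at least 50% of the called genes of either run again lay together in a run. With gaps of at most 2 genes, or at a threshold of 0.01, this held for the first run only.

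The 3 runs of chromosome 17 lay apart from Tnf. From Tbc1d24 to Eci1 6 of 9 genes were called, 2 higher and 4 lower. Tbc1d24, a regulator of synaptic vesicle traffic, differed by 0.45 ± 0.07, the lipid transporter gene Abca17 by -0.44 ± 0.09, Rnps1, an RNA splicing factor gene, by -0.34 ± 0.06 and Eci1, an enzyme of fatty acid breakdown, by -0.26 ± 0.06. From Nubp2 to Jpt2 4 of 6 genes were called, among them the mitochondrial ribosome gene Mrps34 (-0.38 ± 0.07) and Nubp2 (0.33 ± 0.07). From 9130008F23Rik to Enpp4 7 of 20 were called, with Mmut, the methylmalonyl-CoA mutase gene, at 0.44 ± 0.06 (adjusted p = 0.000303) and no overlap. With an array left out, at least 50% of the called genes of the first run lay together again in 16 of 16 fits. For the second run it was 12 of 16 and for the last 1 of 16. In that last run called genes fell to 2 without stroke array 4 of C57BL/6 or without stroke array 2 or 4 labelled TNF knockout.

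Glo1, also on chromosome 17, was in no run. Its neighbour Btbd9 was higher by 0.50 ± 0.08 (adjusted p = 0.00256) and Dnah8 on the other side gave 0.21 ± 0.06 (adjusted p = 0.0728). Among the 25 genes on each side of Glo1, 3 were called (6%, beside 2.47% of all genes), Btbd9, Cbs and Rrp1b, and the median of the 50 was 0.0044. Cbs, which makes cystathionine from homocysteine, was lower by 0.40 ± 0.06 without overlap. A further adjacent pair on this chromosome, Yipf3 and Lrrc73, was lower by 0.44 ± 0.08 and 0.43 ± 0.07.

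The neighbours of Tnf were examined in the same way. Of 25 tested genes on each side, 1 of 50 was called (2%, beside 2.47% of all genes), and the median was -0.08. The called gene was Gtf2h4, a subunit of the transcription and DNA repair factor TFIIH, which was lower by 0.43 ± 0.07 (adjusted p = 0.00118) and is the 18th tested gene after Tnf. Lta and Ltb, the cytokine genes on either side of Tnf, gave 0.08 ± 0.08 and -0.08 ± 0.06, with adjusted p of 0.659 and 0.498. None of 19 tested genes of antigen presentation was called, with a median of -0.11.

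On chromosome 8, from Il12rb1 to Ocel1, 7 of 11 genes were called and 6 of them were lower, with Ccdc124 at -0.66 ± 0.09 and Use1, a protein of membrane fusion, at -0.36 ± 0.07. Ocel1 was the exception at 0.41 ± 0.07. The run on chromosome 7, from Itpripl2 to Gprc5b, had 4 of 10, and that on chromosome 1, from Rab3gap2 to Gpatch2, had 4 of 14, with Bpnt1 at -0.64 ± 0.07 and Lyplal1 at 0.42 ± 0.06. Further along chromosome 1, outside the run, lay Flvcr1, a haem and choline transporter (0.50 ± 0.08, though its second probe set gave 0.16 ± 0.07), and Tatdn3 (-0.45 ± 0.06).

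Imprinted genes were also neighbours in a group of 3 on chromosome 7, which was too short to count as a run. Zim1 (0.38 ± 0.09), Peg3 (0.25 ± 0.06) and Usp29 (0.35 ± 0.08) were all higher, with adjusted p of 0.0338, 0.0279 and 0.0292, and with each array omitted in turn they stayed called 7, 9 and 11 times of 16. Peg3 is a zinc finger gene read from the paternal copy. On chromosome 16 Mir99ahg, a microRNA host gene, was higher by 0.33 ± 0.07, but by 0.19 (adjusted p = 0.0784) when its probe sets were averaged. The microRNA genes beside it, Mir99a and Mirlet7c-1, were higher by 0.37 ± 0.09 and 0.48 ± 0.09. Both groups were picked after their values were seen.

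Some called genes were not constant among the arrays labelled TNF knockout. Gdpd3, which encodes a phospholipase of lysophospholipid metabolism, had the largest difference of the 492, 2.38 ± 0.43 (adjusted p = 0.00456). Its C57BL/6 arrays read 4.02, 4.72, 4.17 and 4.33 in naive brain and 4.16, 4.70, 4.65 and 4.33 after stroke. The arrays labelled TNF knockout read 4.5, 7.87, 7.51 and 7.50 in naive brain and 4.43, 7.10, 7.61 and 7.6 after stroke. Both arrays numbered 1 thus lay among the C57BL/6 arrays and the other 6 far above them. Without these 2 arrays the difference was 3.15. The 2 arrays were chosen by their Gdpd3 values, so a larger difference follows from the choice and tests nothing. The count of called genes was then 542, of which 365 were among the 492. In neither state was Gdpd3 called alone.

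Trim12a and Trim30d, members of an antiviral gene cluster on chromosome 7, were also uneven, and both read low beside the array medians of 6.01 to 6.05. Trim12a read 3.57, 2.79, 2.93 and 3.10 in naive and 3.99, 2.82, 3.41 and 2.70 in stroke arrays labelled TNF knockout, against 3.93 to 4.65 in C57BL/6 arrays. Trim30d read 3.0, 3.08, 2.61 and 2.87 and then 3.98, 3.06, 3.05 and 3.52, against 3.29 to 4.28. Stroke array 1 was the highest of its label for both genes, while naive array 1 stood above the other naive arrays of its label for Trim12a only. Trim12a was lower by 1.18 ± 0.15 (adjusted p = 0.000182) and Trim30d by 0.62 ± 0.12 (adjusted p = 0.00697), and without both arrays numbered 1 the differences were -1.38 and -0.74. Genes of this family resemble each other closely in sequence, and a probe set of one may bind RNA of another.

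Pop4, a subunit of ribonuclease P, differed by -0.92 ± 0.22 (adjusted p = 0.0307). In arrays labelled TNF knockout it read 6.78, 6.98, 7.10 and 8.54 in naive and 6.99, 6.89, 7.99 and 8.39 in stroke brain, and C57BL/6 arrays ran from 8.17 to 8.83. Its difference was -1.39 for the 4 KL76 arrays, all of which read low, and -0.40 for the 4 KL82 arrays, of which stroke array 2 read low as well. Trim13, a ubiquitin ligase gene, also differed by -0.92 ± 0.24 (adjusted p = 0.0461), with -0.28 in naive and -1.56 in stroke arrays. Without both arrays numbered 1, neither was called, at -0.73 (adjusted p = 0.084) for Pop4 and -0.75 (adjusted p = 0.0931) for Trim13.

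Ifi202b, an interferon-inducible gene of the Ifi200 family, showed the clearest departure from a constant difference among the called genes. It read 2.70, 2.71, 3.08 and 2.73 in C57BL/6 naive brain and 2.96, 2.91, 3.18 and 2.96 after stroke. Arrays labelled TNF knockout read 3.0, 2.88, 2.96 and 2.86 in naive brain and 3.78, 4.26, 4.18 and 4.43 after stroke. Only the last group stood apart. The remaining groups read low beside the array medians of 6.01 to 6.05. At such low readings a difference between the labels in naive brain may go unseen. The offset was 0.12 in naive and 1.16 in stroke arrays, and the state difference was 1.04 with a 95% interval of 0.70 to 1.38. The adjusted p of this difference was 0.0806 by limma, above the threshold. Adam11, an adhesion protein of neurons, was 0.09 in naive and 0.46 in stroke arrays (interval of the state difference 0.14 to 0.58), and Adgrl4, an endothelial receptor, -0.08 and -0.47 (interval -0.63 to -0.16). Enpp4, an end gene of a run on chromosome 17, had -0.10 and -0.53 (interval -0.69 to -0.16). With the prefix as a term the state difference of Ifi202b was 0.93 (interval 0.58 to 1.29) and that of Trim13 -1.62 (interval -2.44 to -0.79).

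**Figure D5:**
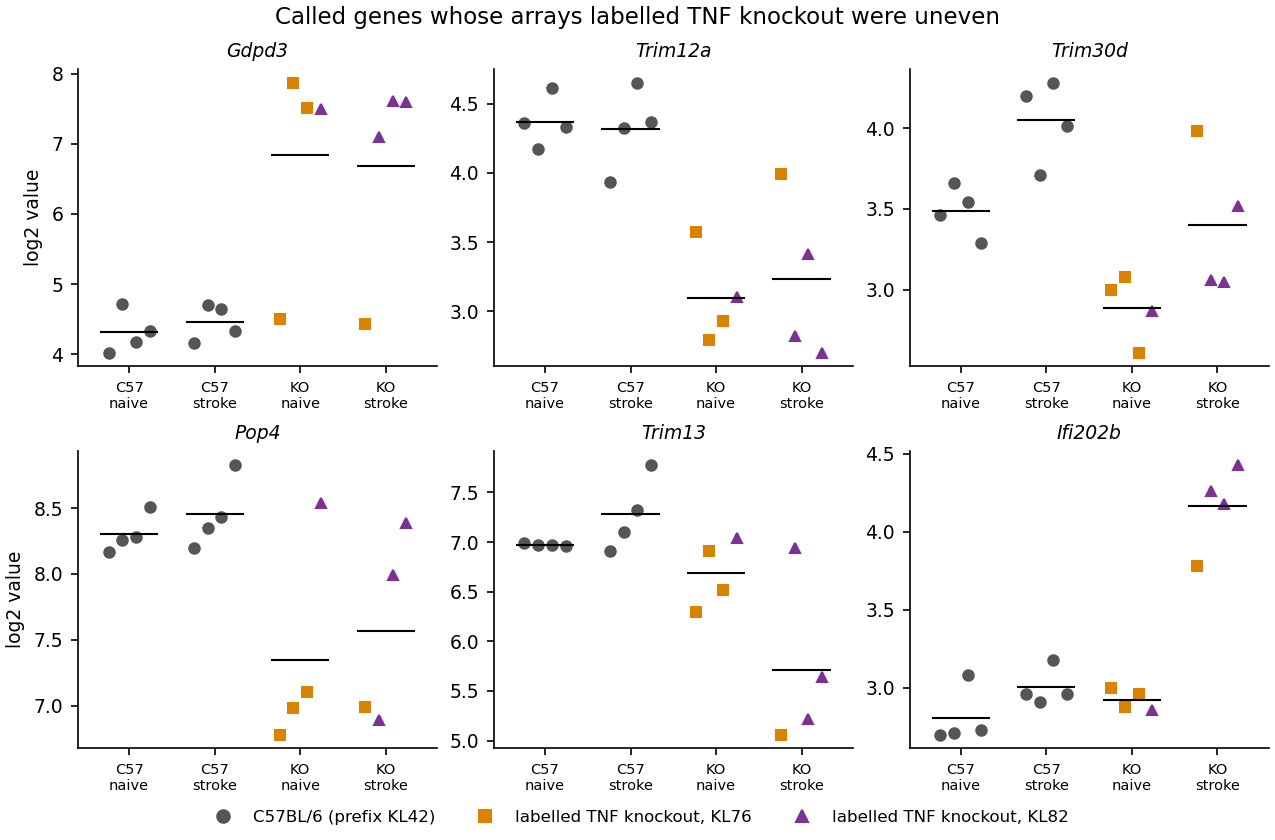
Deposited log2 values of 6 called genes in each of the 16 arrays, drawn as in the plot of constant genes, with the marker shape giving the prefix of the sample name. In Gdpd3 both arrays labelled TNF knockout that are numbered 1 lie with the C57BL/6 arrays, in Pop4 the 4 KL76 arrays and 1 KL82 array are low, and in Ifi202b only the stroke arrays labelled TNF knockout are high.

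The 2 prefixes within the arrays labelled TNF knockout were compared directly. Between KL82 and KL76, 2 genes were called (0.01%), and 1304 had an unadjusted p below 0.05. Alox8, a lipoxygenase gene, was lower in KL82 by 0.68 and Gabra2, a GABA receptor subunit gene, by 0.76, each with adjusted p = 0.0459. When each array was omitted in turn, no gene was called between the prefixes in 10 of 16 fits. Alox8 was also called for the label, at -0.70 ± 0.12 (adjusted p = 0.00311), with -0.36 for KL76 and -1.02 for KL82. Set against the same C57BL/6 arrays, KL76 arrays gave 67 called genes (0.336%) and KL82 arrays 162 (0.813%). Cthrc1 gave -1.46 and -1.51, Glo1 0.96 and 1.00, Nnt -0.62 and -0.63, and Mir377 0.96 and 0.74.

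In gene groups chosen for TNF biology and for the tissue few genes were called, and their counts are to be read beside the 2.47% called and the 9402 of 19938 above 0 over all genes. Of 22 tested ligands, receptors and adaptors of TNF signalling, Tnf alone was called, and the receptor genes Tnfrsf1a and Tnfrsf1b gave -0.05 ± 0.07 and -0.16 ± 0.08 (adjusted p of 0.771 and 0.273). None of 22 chemokine genes was called. Of 21 interferon-stimulated genes 1 was higher, Stat2 (0.28 ± 0.06), and 1 lower, Bst2 (-0.38 ± 0.09). The complement genes C1qa (-0.34 ± 0.07) and C1qc (-0.43 ± 0.09), which start the classical pathway and are made by microglia, were lower among 15 tested, while none of 11 microglia markers was called. C1qc was uneven, at -0.21 in naive and -0.65 in stroke arrays (interval of the state difference -0.76 to -0.11). For glutathione and NADPH metabolism 3 of 26 were called (2.47% over all genes), Glo1 (higher), Nnt and the peroxiredoxin gene Prdx1 (-0.25 ± 0.06; its second probe set gave -0.12 ± 0.06). No gene was called among 15 clock genes, 11 heat shock genes and 19 genes of the respiratory chain, and 1 of 22 immediate early genes was, Jun (0.32 ± 0.07). Most of the differences in the last 3 of these groups were below 0: 2 of 11 heat shock genes (median -0.12), 2 of 19 respiratory chain genes (median -0.05) and 5 of 22 immediate early genes (median -0.08) were above it. For heat shock genes this held in stroke arrays only, with medians of 0.02 in naive and -0.205 in stroke arrays. Respiratory chain genes had -0.04 and -0.08, and immediate early genes -0.06 and -0.105. Interferon-stimulated genes had -0.08 and 0.31, and microglia markers 0.09 and -0.21.

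A list of 11 genes known to vary between inbred mouse strains or substrains had 5 called, beside 2.47% of all genes. Besides Glo1, Nnt and Ifi202b these were Entpd4, a Golgi nucleotidase (0.65 ± 0.08), and Wdfy1 (-0.54 ± 0.07), and 4 of the 5 did not overlap between labels. The list was chosen with results of these data known. Crb1, Cyfip2, Disc1, Ide, Mmrn1 and Nlrp1b were not called, with differences between -0.24 and 0.27.

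Among cell type markers, those of oligodendrocytes, the cells that make myelin, leaned in one direction, and some other lists given below leaned as well. All 12 tested had a difference below 0, with a median of -0.25, against a median of -0.01 and 9402 of 19938 above 0 over all genes. Beside the 2.47% called over all genes, 4 of the 12 were called: Cldn11 (-0.44 ± 0.08), Mal (-0.42 ± 0.07), Cnp (-0.37 ± 0.06) and Mag (-0.27 ± 0.07), the last of which stayed called 4 times of 16 when each array was omitted in turn. The major myelin gene Mbp gave -0.19 ± 0.06 (adjusted p = 0.0843) and Mog -0.30 ± 0.09 (adjusted p = 0.0794). The mean of the 12 markers ran from 9.07 to 9.5 over C57BL/6 arrays and from 8.75 to 9.15 over arrays labelled TNF knockout, so the arrays overlapped. In whole brain, fewer cells of a type and less RNA per cell cannot be told apart. Tspan2, a tetraspanin of myelinating cells, was lower by 0.45 ± 0.08 without overlap. Of 9 tested markers of oligodendrocyte precursors 1 was called, Olig1, a transcription factor of the lineage, lower by 0.30 ± 0.07. It stayed called 12 times of 16 when each array was omitted in turn. Of the 9, 2 were above 0, Pdgfra (0.08 ± 0.05) and Cspg4 (0.02 ± 0.08), and the median was -0.145. That median was -0.01 in naive and -0.27 in stroke arrays.

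The inhibitory neuron genes Gad1 and Gad2, which make GABA, were higher by 0.24 ± 0.06 and 0.26 ± 0.06. They were the only ones called of 12 markers of those cells, beside 2.47% of all genes. The 12 did not lean clearly in one direction: 7 were above 0, with a median of 0.08, beside 9402 of 19938 over all genes. With each array omitted in turn, Gad1 stayed called 3 times and Gad2 all 16 times. Astrocyte, general neuron, cortical and striatal neuron, endothelial, choroid plexus and lymphocyte markers had no called gene. Nor had those of neutrophils and monocytes or of pericytes, smooth muscle and meninges. Some of these lists leaned too. Above 0 were 13 of 16 pericyte, smooth muscle and meningeal markers (median 0.13) and 10 of 12 of choroid plexus and ependyma (median 0.06). Lymphocyte markers had 3 of 12 above 0 (median -0.07) and neutrophil and monocyte markers 4 of 15 (median -0.06). Of 6 pituitary markers 1 was called, Prl (-0.40 ± 0.08). The part of cell composition in the differences above was not tested.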

How the data were processed

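Total RNA of whole frozen brain was labelled and hybridised to Affymetrix Mouse Gene 1.0 ST arrays, 1 per sample, per the labels' protocols. The authors deposited log2 values per probe set with 2 decimals. The submitters' processing notes name GCOS, GCRMA, RMA and Partek, and which of them made the values is not stated. The number of arrays limits precision. Of 28944 probe sets, 21789 had a single gene symbol in GEO's platform annotation, and for each gene with several the one with the highest mean was kept, leaving 19938 genes. Differences were fitted with limma 3.58.1 (lmFit, eBayes) in R 4.3.3 with label and state as terms, two-sided, with Benjamini-Hochberg adjustment over all genes and a threshold of 0.05. Naive and stroke arrays were also fitted alone, the genotype by state term from 4 group means, and the prefixes against each other. Gene order came from RefSeq on GRCm38.p6, used only for order and microRNA sequences, since the deposited files name no build of their own.

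Members and lists were chosen with earlier results of these data known. Genes named were Tnf, the 15 largest non-overlapping differences each way with annotated names, run members and ends with the smallest p, up to 4 per list and the 5 with the smallest p for the state difference. Other genes named were chosen after their values were seen. Same-numbered arrays deviated together with a mean correlation of 0.098 (10 of 24 pairs over 0.1), against -0.03 for other pairs. The labels do not say that the numbers mark shared animals or days, so they were not taken as pairs. These correlations do not settle the point. On simulated data 32% of genes changed by 0.25, 78% by 0.5 and 100% by 1 were recovered for the 8 against 8 comparison over 19938 genes. Quantile normalization, centring, filters, variance models, blocks, thresholds and leaving out arrays were tried as alternatives.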

Additional observations from a re-analysis of the deposited data

Results flagged for a closer look

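In 240 groups of 8 arrays (120 genes, each label), 9 values, in 5 arrays, stood apart from the rest of their label by Dixon's criterion, and chance gives about 1 in 20 groups. Among C57BL/6 arrays these were Catspere2 in naive array 2 (7.12, next 6.72), Itih3 in naive array 1 (7.34, next 7.97), Gm10654 in stroke array 1 (5.02, next 5.41), and 4 values of stroke array 4. That array was high at Cpq (8.48) and Trim13 (7.78) and low at Mir369 (4.44) and Mir382 (6.16). Among arrays labelled TNF knockout, stroke array 1 was low at both Mag (9.37, next 9.61) and Tspan2 (10.39, next 10.67). Naive and stroke arrays were pooled in these groups.

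Alox8 and Gabra2 differed between the prefixes of the arrays labelled TNF knockout, by -0.68 and -0.76 (KL82 minus KL76, limma, adjusted p = 0.0459 each), in a comparison with no called gene in 10 of the 16 fits that omitted an array. Alox8 read 5.27, 5.55, 5.40 and 5.78 in the KL76 arrays and from 4.70 to 5.13 in the KL82 arrays.

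Probe sets with no gene symbol or several were outside the gene comparison. When all 28944 probe sets were fitted together, 199 of 7155 such probe sets passed (2.78%), 78 higher and 121 lower, with differences from -1.70 to 1.47.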

How the results depend on the processing

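These checks covered 120 genes, and none of the 115 called among them reversed. Of these, 18 passed under every alternative run on them other than omitting single arrays, the 1.5-fold minimum and the fits of 1 prefix included. Reversals were not counted for genes that were not called. The 492 calls became 119 at a threshold of 0.01, 37 at 1.5-fold or more, 67 with KL76 and 162 with KL82 arrays alone (fewer arrays), and 1198 with the prefix as a random block (estimated correlation -0.0337). Leaving out 1 array gave 263 to 562, and Tnf 1.12 to 1.24. The split moved from 255 higher and 237 lower to 449 and 259 without the dimmest genes, and to 387 and 267 with a variance trend. Naive calls (51) became 32 after quantile normalization, 133 without the dimmest genes and 15 to 37 without 1 array. Stroke calls (46) became 96 without the dimmest genes and 15 to 51 without 1 array. With the replicate number as a block the counts were 638, 31 (naive), 61 (stroke) and 1 for the genotype by state term, and Tnf stayed at 1.17. Whether arrays sharing a number are pairs was not settled. Of 16 arrays, 7 correlated best with their own number, and no chance level was computed for this. The genotype by state count was 0 to 3 and the prefix count 0 to 11 without 1 array. The 9 runs became 14 with gaps of at most 10 genes, 2 at 0.01, 24 without the dimmest genes and 5 to 10 without 1 array. The cause of these changes was not tested.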
